A study of Rattus norvegicus with 17 samples.

Results

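Slc3a1 (ENSRNOG00000007006) and Dpp4 (ENSRNOG00000030763) encode a pair of proteins of the proximal tubule brush border and were examined in kidney RNA of rats after sub-total nephrectomy (SNx). They were chosen by name as 2 of the 23487 genes in the count tables and 2 of the 15438 genes with enough counts for a test. The study itself had put both forward as downregulated candidates, partly on these libraries, so the direction of their change is not an independent finding. There were 12 libraries of SNx rats and 5 of control rats, labelled NoOp. All were male Wistar Han rats, with no genetic modification and no drug named in the labels or methods. In SNx, part of the right kidney was resected and the left kidney was removed in a second operation, so the RNA came from a remnant that had lost most of its functioning mass. The study's methods call the controls of this cohort sham-operated while the labels read NoOp, and the label is used here. The study's results state that only some SNx rats of the cohort reached the functional disease threshold, the labels do not say which, and all 12 SNx libraries were used here. They also state that the time to termination varied between individual animals. That time was not used here, and its part in the spread among SNx libraries was not tested.

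The proximal tubule reclaims filtered amino acids, peptides, glucose and phosphate through a dense apical brush border that carries transporters and ectoenzymes. Slc3a1 encodes rBAT, the heavy chain that brings the light chain of the cystine and dibasic amino acid transporter b0,+ to the apical membrane, and its loss in humans causes cystinuria. Dpp4 encodes dipeptidyl peptidase 4 (CD26), an ectoenzyme that removes dipeptides from peptides with proline or alanine next to the amino terminus, and it is carried by brush border membranes and also by T cells and other cells.

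Sequence upstream of each gene is shown because the genes moved together across the libraries. The 250 bases before the annotated start are from RefSeq (build GRCr8) and are given 5′ to 3′ on the gene's strand in lower case, with the motif matches described next in capitals. The Slc3a1 sequence lies at chr6:15394750-15394999 and the Dpp4 sequence at chr3:67452423-67452672, both on the minus strand. The start used for Slc3a1 lies inside the annotated span of the gene, so another start is annotated upstream of it.
Slc3a1: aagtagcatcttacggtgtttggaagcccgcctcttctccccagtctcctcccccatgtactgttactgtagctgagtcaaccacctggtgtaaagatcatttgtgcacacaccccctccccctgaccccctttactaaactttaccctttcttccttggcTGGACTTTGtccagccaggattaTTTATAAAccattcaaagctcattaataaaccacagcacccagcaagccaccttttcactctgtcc
Dpp4: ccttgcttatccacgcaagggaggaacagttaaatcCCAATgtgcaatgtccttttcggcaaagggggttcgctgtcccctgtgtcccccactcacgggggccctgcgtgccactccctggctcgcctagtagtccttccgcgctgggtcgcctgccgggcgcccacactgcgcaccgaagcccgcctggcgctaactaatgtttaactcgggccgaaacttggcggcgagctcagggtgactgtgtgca

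Of 5 motifs searched on both strands, the Slc3a1 sequence held an HNF4 core (CAAAGTCCA) on the minus strand, beginning 89 bases before the start. This core was present in 0.338% of the 33469 promoter sequences of the same length. It also held a TATA box (TATAAA), found in 12.9% of promoters. The TATA box matched on both strands at overlapping positions, 66 and 64 bases before the start. The Dpp4 sequence held none of these and a CCAAT box (CCAAT) 214 bases before the start, a motif of 34.0% of promoters. The STAT element (TTCNNNGAA, 7.67% of promoters) and the CDX element (TTTATNG, 10.1%) had no match in either sequence. The base composition of the sequences differed, with 48.4% G and C for Slc3a1 and 62.4% for Dpp4. A match is a description of letters and not of a bound site. These libraries hold no measurement of binding.

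Total counts were 19210434 to 30784070 in the SNx libraries and 30454170 to 43876369 in the NoOp libraries, and both genes were far above the range where counting limits precision. Levels are given as log2 CPM, where CPM is the count scaled to library size with edgeR's TMM factors. Levels of Slc3a1 and Dpp4 are not compared with each other, because transcript lengths were not used. Markers of the proximal tubule were abundant in the controls, with mean levels of 12.96 for the endocytic receptor Lrp2, 12.17 for the phosphate transporter Slc34a1 and 11.45 for the water channel Aqp1. Podocyte, endothelial and distal tubule markers were not analysed here. In GRCr8, Slc3a1 overlaps the protein-coding gene Prepl on the opposite strand and Dpp4 overlaps a long non-coding RNA gene, LOC134486365, on the opposite strand. The library kit kept strand, but whether the quantification used it is not given in the sources used here, so reads of the overlapping genes may not be told apart.

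Slc3a1 was lower in every SNx library than in every control. Its counts were 91261 to 152334 in the NoOp libraries and 3180 to 66943 in the SNx libraries. In the controls the levels were 11.67, 11.86, 12.04, 11.94 and 11.85 log2 CPM in NoOp 1 to NoOp 5. In the SNx libraries the lowest level was 7.25, the median 10.04 and the highest 11.22. The gap between the lowest control and the highest SNx library was 0.45, less than the SD of the SNx libraries, 1.27. The lowest level was that of SNx 1. SNx 5, SNx 10 and SNx 6 came next with 8.10, 8.76 and 8.81. SNx 8, SNx 7, SNx 3, SNx 12 and SNx 2 held the middle with 9.59, 9.94, 10.14, 10.22 and 10.52. Nearest to the controls were SNx 9, SNx 4 and SNx 11 with 11.07, 11.12 and 11.22.

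Dpp4 was also lower in every SNx library than in every control. Its counts were 18134 to 28676 in the NoOp libraries and 2711 to 14183 in the SNx libraries. The control levels were 9.49, 9.49, 9.62, 9.53 and 9.31 log2 CPM in NoOp 1 to NoOp 5. The SNx levels had a minimum of 7.02, a median of 8.11 and a maximum of 9.03, with a gap of 0.27 to the lowest control. The lowest library was again SNx 1. SNx 10, SNx 8, SNx 6 and SNx 5 came next with 7.52, 7.65, 7.77 and 7.90. SNx 7, SNx 12, SNx 3 and SNx 2 held the middle with 8.05, 8.17, 8.37 and 8.47. The highest levels, 8.74, 8.83 and 9.03, were those of SNx 4, SNx 9 and SNx 11. Thus the same library was lowest for both genes and the same library highest, as the plot of levels by library shows.

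**Figure D1:**
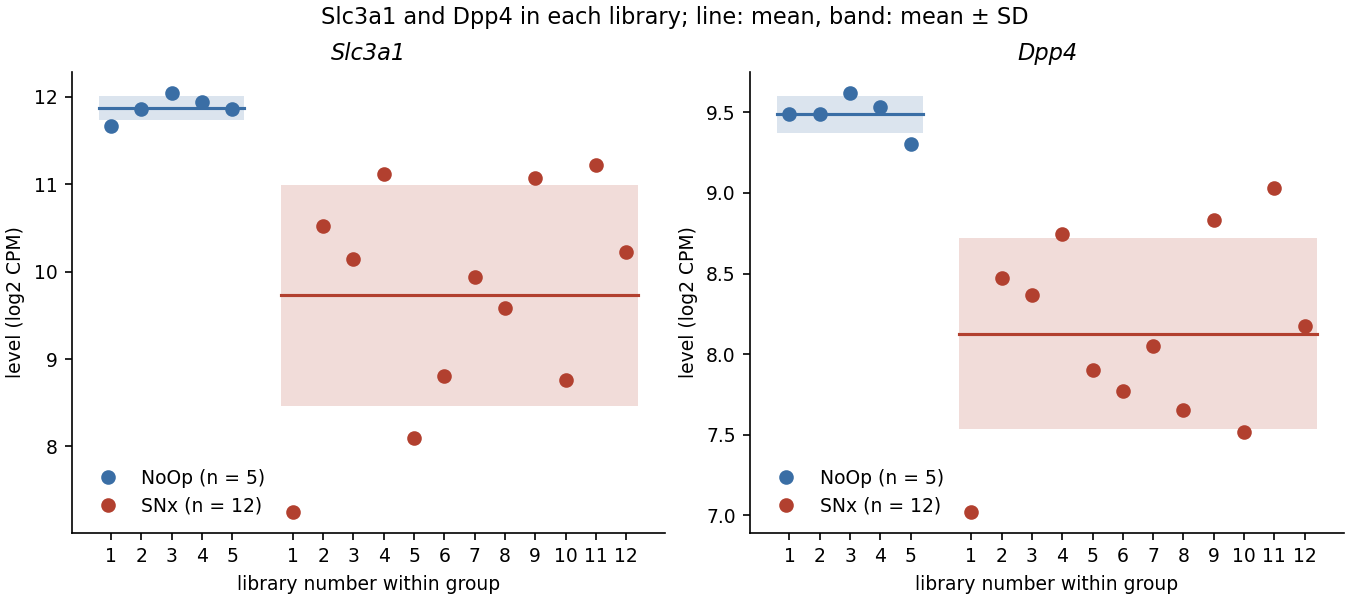
Level of Slc3a1 (left) and Dpp4 (right) in log2 CPM for each of the 5 NoOp and 12 SNx libraries, by library number within the group; points are libraries, lines are group means and bands are the mean ± SD. All 12 SNx points lie below the lowest NoOp point for both genes, and the SNx points of Slc3a1 run from 7.25 to 11.22 while those of Dpp4 run from 7.02 to 9.03.

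The fold change of mean counts was -1.73 on the log2 scale for Slc3a1 (standard error, SE, 0.46, adjusted p = 0.00443, edgeR quasi-likelihood test with Benjamini-Hochberg adjustment over all tested genes). For Dpp4 it was -1.26 (SE 0.24, adjusted p = 0.000404, same test). Both genes passed the threshold, where 58.0% of all tested genes did so in either direction and 27.7% did so with lower levels in SNx. Every SNx library lay below every NoOp library in 9.60% of all tested genes, and both genes were among them. On the scale of mean log2 CPM the differences were larger, at -2.14 for Slc3a1 and -1.36 for Dpp4, because the libraries with the most transcript weigh less there. Of the 15438 tested genes, 228 had a lower log2 fold change than Slc3a1 and 664 had a lower one than Dpp4, against a median of 0.02 over all genes. In these whole-tissue libraries, fewer proximal tubule cells and less RNA of these genes per cell cannot be told apart.

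The share of the control level that was left differed widely between the SNx libraries and was smaller for Slc3a1 than for Dpp4 in 12 of 12 libraries. As CPM relative to the mean of the 5 controls, SNx 1, SNx 5, SNx 10 and SNx 6 had 4.05%, 7.28%, 11.5% and 11.9% of Slc3a1. Dpp4 in the same libraries was at 18.05%, 33.2%, 25.5% and 30.3%. These 4 libraries were the ones with Slc3a1 under 15% of the control mean, and Dpp4 was under 15% in 0 libraries. In the middle of the range SNx 8, SNx 7, SNx 3, SNx 12 and SNx 2 had 20.5%, 26.2%, 30.0%, 31.7% and 39.1% of Slc3a1. Dpp4 was there at 27.9%, 36.9%, 45.8%, 40.1% and 49.3%. The 3 libraries with Slc3a1 over 50% were SNx 9, SNx 4 and SNx 11, at 57.2%, 58.9% and 63.3%, with Dpp4 at 63.4%, 59.5% and 72.8%. Controls varied between 86.3% and 112% for Slc3a1 and between 87.9% and 109% for Dpp4. The amount of Dpp4 left exceeded that of Slc3a1 by a factor of 1.01 in SNx 4 and of 4.46 and 4.56 in SNx 1 and SNx 5. In the bars of the share left, ordered by Slc3a1, the Slc3a1 bar is the shorter of each pair.

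**Figure D2:**
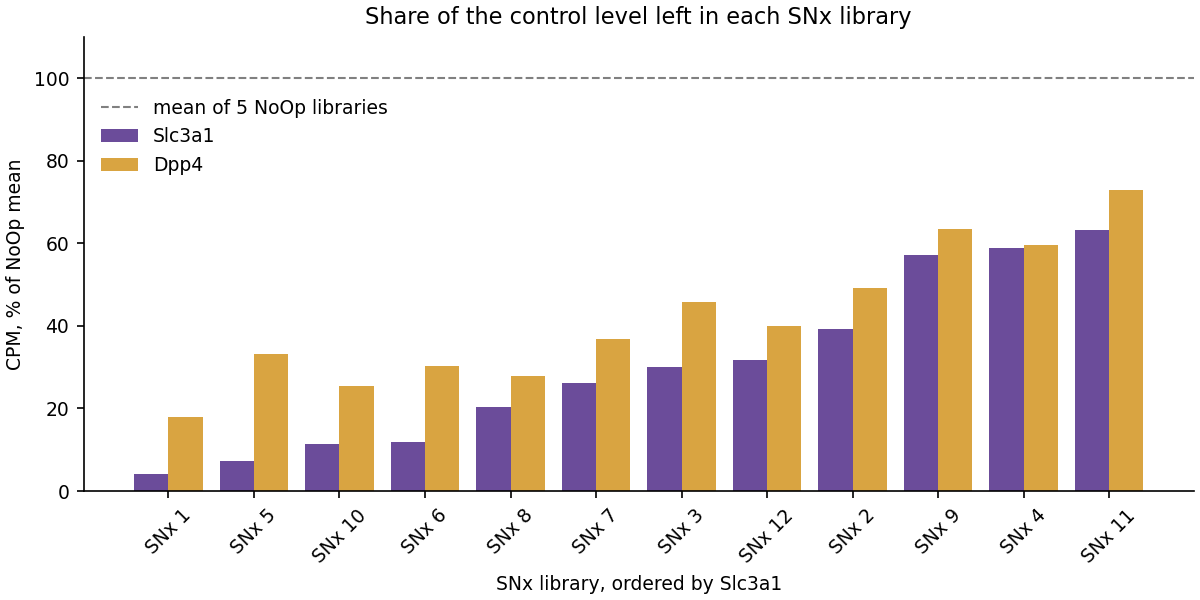
CPM of Slc3a1 and Dpp4 in each SNx library as a percentage of the mean of the 5 NoOp libraries (dashed line at 100%), with the libraries ordered by Slc3a1. Slc3a1 bars rise from 4.05% in SNx 1 to 63.3% in SNx 11 and are the lower of the pair in all 12 libraries.

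The ratio of Slc3a1 to Dpp4 within a library, in which transcript length and library scaling cancel, tests this difference. The log2 ratio was 2.18, 2.37, 2.42, 2.41 and 2.55 in NoOp 1 to NoOp 5. In the SNx libraries its lowest value was 0.20, its median 1.91 and its highest 2.37. The groups overlapped, with 3 SNx libraries (SNx 4, SNx 9 and SNx 11) inside the range of the controls and the other 9 below it. The mean log2 ratio was 1.60 ± 0.75 (SD, n = 12) in SNx and 2.38 ± 0.13 (SD, n = 5) in NoOp. The difference was -0.78 (two-sided exact permutation test over every way to assign 12 and 5 libraries, p = 0.0302). This was the largest p of the 6 single-value tests of this family, and Benjamini-Hochberg adjustment always leaves the largest p as it is (adjusted p = 0.0302, exact permutation test). The adjustment therefore adds nothing for this value. The call rests on the controls as well as on the operated rats, since without NoOp 3 the difference was -0.78 (exact permutation p = 0.0505) and without NoOp 5 it was -0.74 (exact permutation p = 0.0577). Leaving out any other single library kept p under 0.05. The library numbers in the labels fall into a lower range, which holds all controls and 6 SNx libraries, and an upper range with the other 6 SNx libraries. Against the same 5 controls the difference was -1.11 for the lower range (exact permutation p = 0.0260) and -0.46 for the upper range (exact permutation p = 0.0130).

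Slc3a1 and Dpp4 varied together among the SNx libraries. Over the 12 SNx libraries Pearson's r of their log2 CPM was 0.92 (permutation p = 2e-05, adjusted p = 6e-05) and Spearman's rho was 0.94 (permutation p = 4e-05). Without SNx 1 and SNx 5, the libraries farthest from the median of Slc3a1, r was 0.95. With any 1 SNx library left out r stayed between 0.88 and 0.96. Within the lower number range r was 0.96 (exact permutation p = 0.00417, n = 6) and within the upper range it was 0.97 (exact permutation p = 0.00139, n = 6).

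The spread was unequal. The SD over the SNx libraries was 1.27 log2 CPM for Slc3a1 and 0.59 for Dpp4, against 0.14 and 0.11 in the controls. A larger SD than that of Slc3a1 was seen in 487 tested genes (3.15%), and a larger one than that of Dpp4 in 2700 (17.5%). For each log2 unit of Slc3a1, Dpp4 changed by 0.43 log2 units, and by 0.40 to 0.49 with any 1 SNx library left out. The log2 ratio of the genes was correlated with their mean level over the 12 SNx libraries, a measure that is 0 when both genes spread equally. Here r was 0.91 (permutation p = 1e-05, the smallest that 100000 permutations can give, adjusted p = 6e-05) and rho was 0.91 (permutation p = 7e-05). Without SNx 1 and SNx 5 it was 0.88 (permutation p = 0.00029, n = 10). Within the lower number range it was 0.96 (exact permutation p = 0.00556, n = 6) and within the upper range 0.87 (exact permutation p = 0.00694, n = 6). The largest departures from the line were those of SNx 5, where Dpp4 was 0.48 above it, and SNx 8, where it was -0.42 from it. In the scatter of the genes the SNx points run along a shallower line than equal loss would give.

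**Figure D3:**
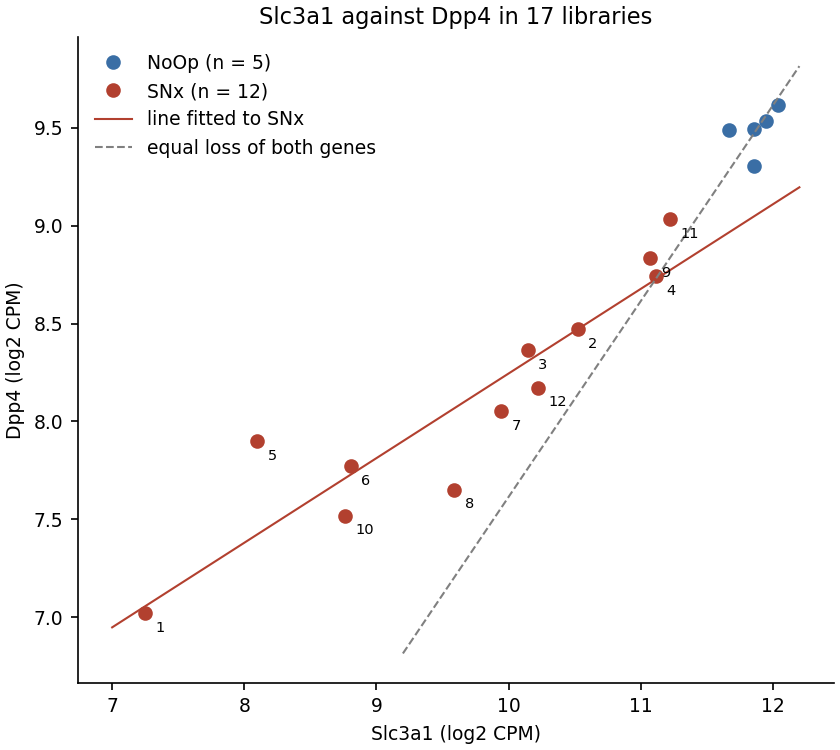
Dpp4 against Slc3a1, both in log2 CPM, in 5 NoOp (blue) and 12 SNx (red, numbered) libraries; the solid line is the least-squares line of the SNx libraries (slope 0.43) and the dashed line marks equal loss of both genes from the control mean. SNx 4, SNx 9 and SNx 11 lie near the dashed line, and the libraries with less Slc3a1 lie above it.

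Both levels moved with sequencing depth as well. Over the 12 SNx libraries r with the log2 of total counts was 0.71 for Slc3a1 (permutation p = 0.0104, adjusted p = 0.0180), with rho 0.59 (permutation p = 0.0457). It was 0.70 for Dpp4 (permutation p = 0.0120, adjusted p = 0.0180), with rho 0.67 (permutation p = 0.0198). For the log2 ratio r was 0.64 (permutation p = 0.0256, adjusted p = 0.0302) and rho 0.58 (permutation p = 0.0512). Without SNx 3 and SNx 9, the libraries farthest from the median depth, these r values were 0.72, 0.67 and 0.67. The part of depth in the results was not tested.

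Likeness to Slc3a1 was common among the genes of these kidneys, so that the r of Dpp4 is not particular to it. Of the 15437 other tested genes, 1074 (6.96%) had a higher r with Slc3a1 than Dpp4 had, while the median r was 0.03. An r over 0.9 was found in 9.21% of genes and an r under -0.9 in 4.22%. Among the other genes called lower in SNx the median r with Slc3a1 was 0.81. These values are descriptions over the same 12 SNx libraries, in which all genes of a library share its depth and its tissue. The distribution has a heap near each end, and Dpp4 stands in the upper one.

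**Figure D4:**
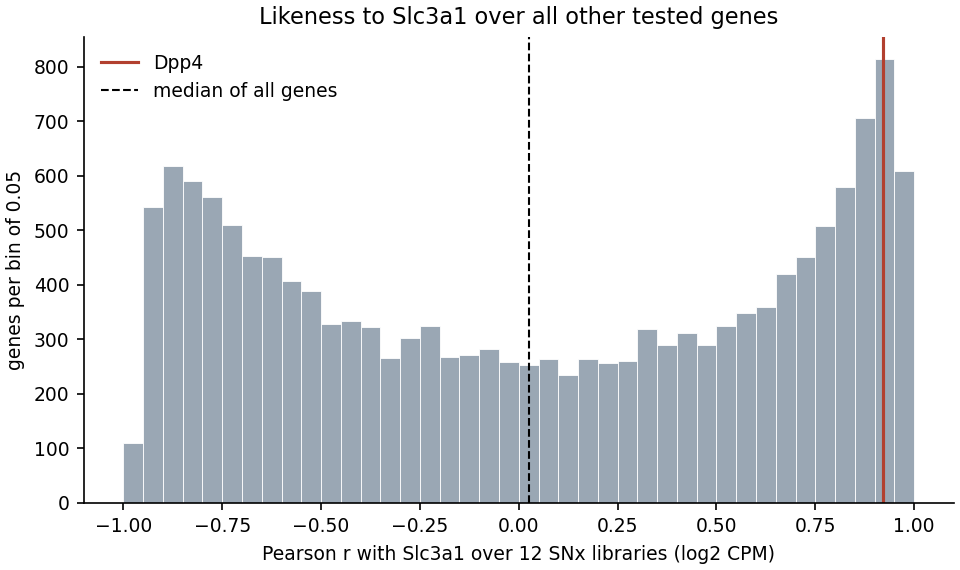
Number of genes by Pearson r with Slc3a1 over the 12 SNx libraries, in bins of 0.05, for the 15437 other tested genes. Dpp4 (red line, r = 0.92) stands in the upper heap and the median of all genes (dashed line) is at 0.03.

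The 5 named genes most like Slc3a1 were Aldh6a1, a mitochondrial enzyme of valine breakdown, at r = 0.995, the deaminase Rida at 0.994, the nucleoside diphosphatase Entpd5 at 0.993, the iodotyrosine deiodinase Iyd at 0.993 and Gchfr, the regulator of GTP cyclohydrolase, at 0.993. Their log2 fold changes ran from -1.99 for Iyd to -1.12 for Entpd5, and all 5 passed the test, where 27.7% of all tested genes were called lower. The 5 most like Dpp4 were LOC103694877 at r = 0.983, the RNA ligase Rtcb at 0.983, Tmbim6, a protein of the endoplasmic reticulum, at 0.981, the biotinidase gene Btd at 0.980 and Lrrc8d, a subunit of volume-regulated anion channels, at 0.978. Their log2 fold changes ran from -1.30 for LOC103694877 to -0.69 for Tmbim6, and all 5 passed the test. No gene stood on both lists. Both lists were picked by r over these same SNx libraries. They were drawn from 1697 genes with a symbol and a mean of at least 3 log2 CPM in SNx. Symbols came from genes the study called changed, so that all 5 of each list passed is a description.

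Other genes of the brush border were taken from lists of names. A symbol was at hand only where the study's supplementary tables pair it with an identifier, and those tables hold genes the study called changed in one of its cohorts, so counts within lists lean towards change and are given as descriptions. Of the 18 genes on a list of brush border peptidases and ectoenzymes, 12 had an identifier and were tested, and all 12 fell. Their median log2 fold change was -1.66, against the background of 27.7% called lower and a median of 0.02 over all genes. Not all of the 12 encode brush border peptidases. They include the aminoacylase genes Acy1, whose enzyme is cytosolic, and Acy3, and other enzymes such as Alpl, Nt5e and Enpp3. Alkaline phosphatase Alpl had a log2 fold change of -2.22 (SE 0.49) and the folate hydrolase Folh1 one of -2.13 (SE 0.54). The smallest changes were -0.69 for the ectonucleotide pyrophosphatase Enpp3 and -0.86 for angiotensin-converting enzyme Ace. Slc3a1 stood near the middle of this list, with 5 of the 12 at a lower log2 fold change, while 8 of the 12 were lower than Dpp4. Every SNx library lay below every NoOp library in 9 of the 12, against 9.60% of all tested genes.

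Over the SNx libraries the 12 tested genes of the peptidase and ectoenzyme list followed Slc3a1 with a median r of 0.95. With Dpp4 their median r was 0.90, and r with Slc3a1 was over 0.9 in 9 of the 12. Enpp3 had the lowest values, 0.10 with Slc3a1 and 0.14 with Dpp4. For each log2 unit of Slc3a1, 10 of the 12 changed by more than the 0.43 of Dpp4 and 6 by more than 1. The aminopeptidases Xpnpep2 and Anpep changed by 1.08 and 1.06, and the ectonucleotidase Nt5e and the glutamyl aminopeptidase Enpep by 0.53 and 0.55, nearer to Dpp4. These 4 genes were chosen after their values were seen. Among the 4275 other genes called lower in SNx the median of this slope was 0.18, with 18.9% above Dpp4 and 4.09% above 1. Relative to the median level of the 12 genes of this list in the same library, the mean difference SNx minus NoOp was -0.50 log2 units for Slc3a1 and 0.28 for Dpp4.

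Among 26 listed genes of amino acid and peptide transport, 14 were tested, of which 10 fell and 4 rose, with a median of -1.06. Over all tested genes 27.7% were called lower and 30.3% higher, so the share that rose was near the background. The GABA and taurine carrier Slc6a13 had a log2 fold change of -1.90 (SE 0.47) and was the only one of them with a lower log2 fold change than Slc3a1. The taurine transporter Slc6a6 fell by 0.81 (SE 0.11). The members that rose were Slc7a5, with a log2 fold change of 0.96, Slc7a6 at 0.84, Slc1a5 at 0.56 and Slc7a11. Slc7a5, Slc7a6 and Slc7a11 encode light chains that pair with another heavy chain, Slc3a2, and Slc1a5 encodes a neutral amino acid exchanger. Pairing with Slc3a2 was not limited to the genes that rose, and its link to the direction of change was not tested. Slc7a8, on the same list, also encodes a light chain of Slc3a2 and was among those that fell. Its r with Slc3a1 over the SNx libraries was 0.72. Slc7a11 had 0 to 2 counts in the NoOp libraries and 20 to 141 in the SNx libraries, and was at least 28.8-fold higher in SNx when the controls are set to 3 counts per library. The median of the list was the same with Slc7a11 at that bound. Over the SNx libraries r with Slc3a1 was -0.88 for Slc7a6, -0.80 for Slc7a11, -0.78 for Slc7a5 and -0.38 for Slc1a5. Light chains that partner Slc3a1 in the proximal tubule were not analysed here.

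**Figure D5:**
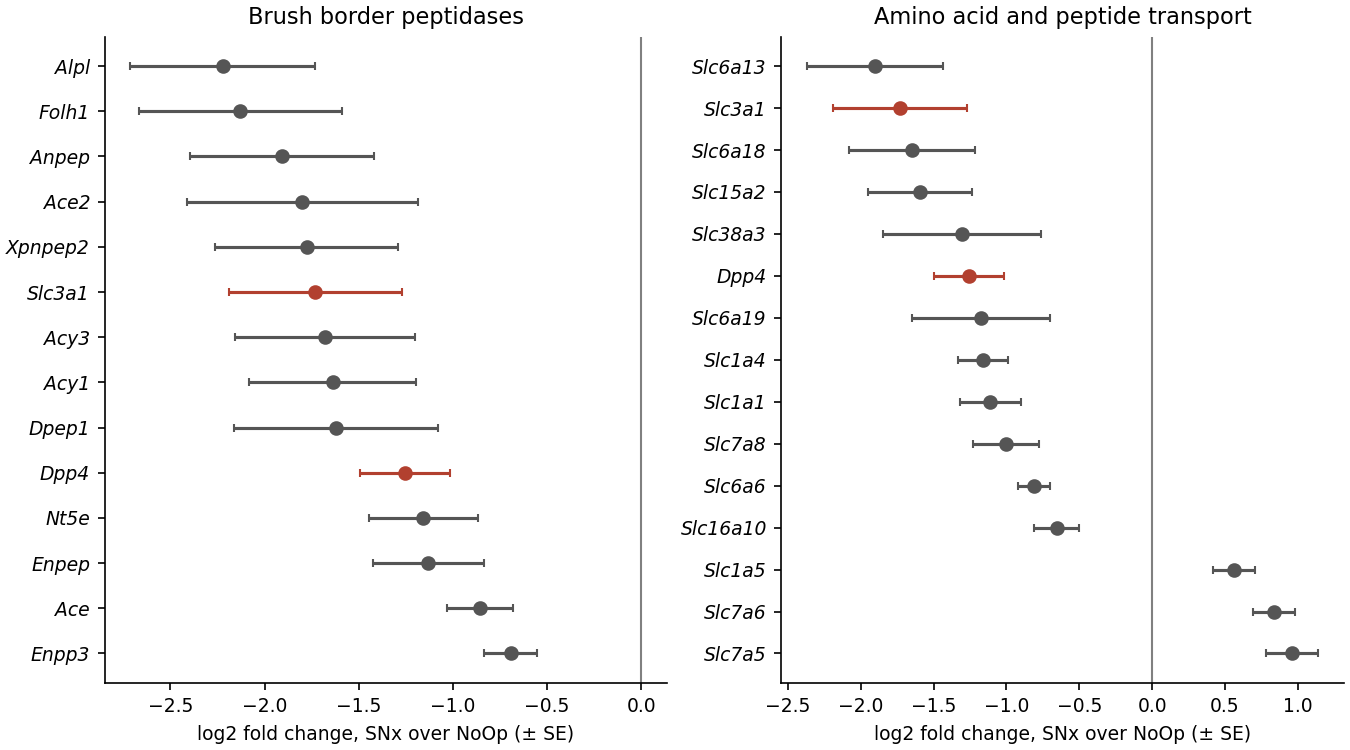
Log2 fold change of SNx over NoOp (edgeR, bars are the standard error), with Slc3a1 and Dpp4 in red in both panels. The left panel, titled brush border peptidases, holds the tested genes listed as brush border peptidases and ectoenzymes. The right panel holds amino acid and peptide transport genes. Slc7a11 is left out because its controls had 2 counts or fewer. All genes of the left panel lie left of 0, and Slc1a5, Slc7a6 and Slc7a5 in the right panel lie right of it.

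Of 14 listed genes of the brush border scaffold and of apical endocytosis, 9 were tested and 8 fell, with a median of -1.19, where 27.7% of all tested genes were called lower. The scaffold protein genes Pdzk1 and Ush1c had log2 fold changes of -1.39 and -0.96, and amnionless (Amn), the partner of cubilin, had -1.60. The endocytic adaptor Dab2 did not pass the test, with a log2 fold change of -0.02. Of 29 other proximal tubule transporters, 24 were tested, 19 fell, 2 rose and 3 did not pass, beside 27.7% lower and 30.3% higher over all tested genes. The organic anion transporter Slco1a1 fell by 2.54 and the fructose carrier Slc2a5 by 2.03 on the log2 scale, while the phosphate transporter Slc34a2 rose by 2.37 and the glucose transporter Slc2a2 by 0.91. In this list 7 of the 24 had a lower log2 fold change than Slc3a1 and 16 of the 24 a lower one than Dpp4.

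Of 11 listed dipeptidyl and prolyl peptidases, which share substrate features with Dpp4, 2 were tested and both fell, where 27.7% of all tested genes were called lower. Prolyl endopeptidase Prep was at -1.26 (SE 0.24) and the aminopeptidase Xpnpep1 at -0.94 (SE 0.17) in log2 fold change. Of 7 transcription factors of the proximal tubule, 2 were tested and both fell without overlap between groups, a separation that 9.60% of all tested genes showed downwards. Log2 fold changes were -1.37 for Hnf4a and -1.09 for the bile acid receptor Nr1h4. Over the SNx libraries r with Slc3a1 was 0.98 for Hnf4a and 0.97 for Nr1h4, and r with Dpp4 was 0.92 and 0.90.

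Markers of other cells and of injury moved the other way. Leukocyte genes were read because Dpp4 is also a T cell surface protein. Of 16 listed, 11 were tested and all 11 rose, with no overlap between groups and a median log2 fold change of 2.15, where 30.3% of all tested genes were called higher in SNx and 13.5% had every SNx library above every NoOp library. Their summed level was 173 to 308 CPM in SNx and 41.4 to 75.6 CPM in NoOp, and none was at 0 over all libraries. The T cell adaptor Sh2d2a rose by 2.61 and the macrophage protein Cd68 by 2.63 on the log2 scale. Over the SNx libraries their r with Dpp4 ranged from -0.87 for Cd14 to 0.50 for Cd2. Of 12 tubular injury genes, 8 were tested and all 8 rose, with a median of 2.85 and a summed level of 3419 to 17433 CPM in SNx against 598 to 888 CPM in NoOp. The secreted injury proteins Lcn2 and Spp1 rose by 5.06 and 4.44. Of 7 fibroblast and matrix genes, 3 were tested and all 3 rose, from 2.02 for Fn1 to 3.63 for Col1a1, with summed levels of 1360 to 10654 CPM in SNx and 386 to 486 CPM in NoOp. The part of these cells in the levels of Slc3a1 and Dpp4 was not tested.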

How the data were processed

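Kidney RNA was depleted of ribosomal RNA and sequenced paired-end from strand-specific libraries, 1 library per labelled sample, while the molecule label reads polyA RNA. Per the labels, separate numbers mark the 17 libraries, and p-values measure the spread between them. Quantification by the authors was at transcript level with the rn6 reference, tximport gave values per gene, and the estimated counts were deposited without normalization. The submitters' processing notes name Salmon and limma, with no version. The authors also deposited log2 values after limma's voom transformation for 13318 genes, used only as an alternative. The whole-series tables repeat these values in 34 columns, which were left aside.

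Estimated counts were rounded to whole numbers, which changed none. In R 4.3.3, edgeR 4.0.16 (filterByExpr, TMM, quasi-likelihood test, no covariate, two-sided) compared 12 SNx with 5 NoOp libraries, with Benjamini-Hochberg adjustment and a threshold of 0.05. A standard error is the fold change divided by the root of its F statistic. Log2 CPM used a prior count of 2. Single values were tested by exact permutation of the group labels, and correlations with 100000 permutations (all orders for 6 libraries). CPM is not corrected for length. The functions were tested on simulated data. As alternatives, limma 3.58.1 was run on the deposited log2 values and after voom on the counts, DESeq2 1.42.0 on the counts, and edgeR with RLE factors, library size alone, other filters on low counts, robust dispersions, a prior count of 0.5, each library left out, and SNx libraries of either number range alone.

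Symbols came only from the supplementary gene lists of the study (2007 identifiers), and gene models and sequences from RefSeq. Named genes are Slc3a1 and Dpp4, for each the 5 genes with a symbol, a mean of at least 3 log2 CPM in SNx and the highest r over the SNx libraries, and, per list, the 2 members with the smallest p, the 2 with the largest change and those against the direction of most of their list. Other genes named as markers, as extremes of a range or as not passing were chosen after their values were seen. So was Slc7a8, named as a light chain gene that fell. The genes and all lists were chosen with earlier results of these data known. The 11 listed markers of other kidney cells had no identifier and are not analysed here. One further listed item is not reported here. Plots used matplotlib 3.10.9 under Python 3.11.15.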

Additional observations from a re-analysis of the deposited data

Results flagged for a closer look

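In each group of 5 NoOp values the most distant library was compared with the others by Dixon's test, for 44 such groups, of which chance alone flags about 2.2. Neither Slc3a1, Dpp4 nor their log2 ratio had such a library, and 2 other genes did. Cd37 was at 1.48 log2 CPM in NoOp 5, below the 2.12 to 2.23 of the others. Rida was at 10.04 log2 CPM in NoOp 5, below the 10.37 to 10.49 of the others. NoOp 5 also had the lowest Dpp4 level of the controls, 9.31, and the highest log2 ratio of Slc3a1 to Dpp4, 2.55.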

How the results depend on the processing

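Slc3a1 and Dpp4 passed the test under all 10 alternatives and with each of the 17 libraries left out. Log2 fold changes ran from -2.17 to -1.51 for Slc3a1 and from -1.43 to -1.06 for Dpp4 under the alternatives, and from -1.88 to -1.62 and from -1.36 to -1.18 with 1 library left out. The count of called genes was 7317 to 9760, and 7914 to 9438 with 1 library left out. With library size alone, the split of called genes moved from 4672 higher and 4277 lower to 7044 higher and 2403 lower, and the median log2 fold change of all genes from 0.02 to 0.23. Relative to that shift, the changes of both genes kept their direction. The log2 ratio was the least secure value: its difference ran from -0.85 to -0.66 with 1 library left out (exact permutation p from 0.0229 to 0.0577), and 2 of the 17 omissions, NoOp 3 and NoOp 5, put p above 0.05. Under its 6 alternatives it ran from -1.11 to -0.46 (exact permutation p from 0.0130 to 0.0328). Correlations within SNx stayed between 0.88 and 0.97 for co-variation and between 0.86 and 0.96 for unequal spread. For 31 genes named from the lists, 5 alternatives chosen after seeing the data (RLE factors, library size alone, limma-voom, DESeq2, without SNx 1) kept direction and call in all 155 cases. With library size alone, 8 instead of 10 amino acid transport genes and 16 instead of 19 other transporters were called lower. No paired analysis was possible because the labels give no replicate numbers shared between the groups. Limits on these values include the small number of controls, 5, and the spread among the SNx libraries. RNA integrity is a further limit, since the study's methods give estimates that ranged widely over its samples, without values per library. The part of depth, of RNA integrity and of reads from overlapping genes was not tested. Lists cover only genes with a symbol.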
